A study of Mus musculus with 6 samples.

Results

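The genes described here are 36 genes of the smooth muscle contractile apparatus and its cytoskeletal anchors, chosen by name. The choice was made with earlier results of these data known. They were read by RNA sequencing of E13.5 mouse kidneys, taken whole. The deposited table of 22394 genes held 35 of the 36. Pln, which encodes the calcium pump inhibitor phospholamban, was absent from it and was not analysed here. Of the 35 genes, 34 reached a normalized count of 10 in at least 3 libraries and were tested. The gene that did not was Kcnmb1, the accessory subunit of the calcium-activated potassium channel of smooth muscle, with 35 reads in all 6 libraries together.

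The 3 control libraries were labelled Ptch1 (flox/+), with 1 floxed and 1 wild-type allele of Ptch1 and no Cre named. The 3 mutant libraries were labelled Foxd1Cre;Ptch1 (flox/-), with 1 floxed and 1 null allele and Cre recombinase driven from Foxd1, a gene of renal stromal progenitors. Ptch1 is the receptor that holds Hedgehog signalling off and is itself a target of that signalling, and the comparison addresses its deletion in the Foxd1 lineage. Ptch1 RNA measured 8.26, 7.91 and 7.60 FPKM in controls 1 to 3 and 23.5, 35.8 and 29.8 FPKM in mutants 1 to 3 (limma adjusted p = 0.00443). It rose, and since these values cover the whole gene and not the deleted part, they do not check the deletion. Cre was carried by the mutants alone, and the null allele was present in every mutant cell, so their effects cannot be told apart from that of the deletion. All values come from whole organs, in which more cells of a type and more RNA per cell cannot be told apart. The labels call the controls littermates. They do not say whether a library held the kidneys of 1 embryo or more, so the p-values measure the spread between these libraries.

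Reads assigned to genes ranged from 21644399 to 25416896 in the controls and from 13261588 to 47847925 in the mutants. Markers of the kidney were present in every library. Six2 of nephron progenitors ranged from 97.9 to 176 FPKM, Foxd1 of stroma from 31.5 to 82.4 FPKM and Wnt11 of ureteric bud tips from 14.7 to 22.6 FPKM. Control 2 held the lowest value of each, and its Foxd1 stood against 75.8 and 82.4 FPKM in controls 1 and 3. It was the highest control for Calb1 of the ureteric bud, at 37.8 FPKM against 10.9 and 8.37 FPKM in controls 1 and 3. FPKM is the read count of a gene divided by its length and by the depth of its library. The Y-linked gene Ddx3y was at 0.0598 and 0.0177 FPKM in controls 1 and 3. It was at 13.9 to 17.8 FPKM in control 2 and the 3 mutants, so sex was not balanced between the groups. Xist was at 72.9 and 53.3 FPKM in controls 1 and 3 and at 0.0471 to 0.206 FPKM in control 2 and mutants 1 and 2. In mutant 3 it was at 6.19 FPKM, and whether that library held material of both sexes was not tested. Control 2 received the lowest weight of the 6 libraries, 0.333 against 0.575 to 2.51, when libraries were weighted by their fit to the group means.

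Smooth muscle cells contract when calcium and calmodulin activate myosin light chain kinase, which phosphorylates the regulatory light chain and lets the smooth muscle myosin pull on actin filaments. Calponins, transgelin, caldesmon and tropomyosins decorate those filaments, and dense bodies and adhesion plaques anchor them to the cell surface. Many of these genes are switched on by serum response factor, which binds the CArG box in their regulatory DNA and is strengthened by myocardin. In the developing kidney such cells form the walls of arteries and, under Hedgehog and Bmp4 signals, the coat of the ureter and renal pelvis. Several of the genes are also used by striated muscle, and others by nearly every cell.

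None of the 34 tested genes passed limma over all genes in either direction, where the share called over all genes was 0.219% higher and 0.0886% lower. The smallest adjusted p was 0.099, for Myl9. The values nevertheless lay mostly on the higher side in the mutants. Of the 34 genes, 28 had positive log2 fold changes (82.4%, against 49.1% of all genes tested), and the median was 0.24 against -0.01 over all genes. All 3 mutants lay above all 3 controls for 9 genes (26.5%, against 7.57% of all genes tested) and below them for 0 (against 9.09%). An unadjusted p under 0.05 was reached by 10 genes in the higher direction (29.4%, against 5.26%) and by 0 in the lower direction (against 4.37%). The 9 genes without overlap were Tagln, Cnn1, Cnn2, Tpm1, Myl9, Myl6, Mylk, Tgfb1i1 and Pdlim7. They are a share of a list chosen by name with earlier results of these data known, and nothing here tests that share.

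The authors' deposited table, made with a count model, called Tagln, Cnn1, Myl9 and Mylk higher and 0 lower among the 34 genes to which it gave an adjusted p. Over all genes with an adjusted p, that table called 3.07% higher and 1.54% lower. Its fold changes did not weigh the libraries evenly. Across 2898 genes with a mean normalized count over 2000, a linear sum of the 6 libraries' log2 values accounted for 99.8% of the variance of the deposited fold changes. Its weights were 0.02 for control 1, -0.56 for control 2, -0.46 for control 3, and 0.28, 0.28 and 0.44 for mutants 1 to 3. Control 1 thus had almost no part in those fold changes. Over the same genes their Pearson correlation was 0.911 with the limma fold changes of all 6 libraries and 0.992 with those fitted without control 1. These genes are not independent replicates, and the sources used here do not give the model behind the deposited fold changes.

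This bears on the contractile genes because control 1 was the lowest control for 22 of the 34 (64.7%, against 36.5% of all genes tested). The limma fold change of Acta2 was 1.08 with all libraries and 0.67 without control 1, beside 0.69 in the authors' deposited table. That of Tagln was 1.58 with all libraries and 1.14 without control 1, beside 1.16 in the authors' deposited table. Csrp1 was at 0.04 with all libraries and -0.28 without control 1, beside -0.34 in the authors' deposited table.

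**Figure D1:**
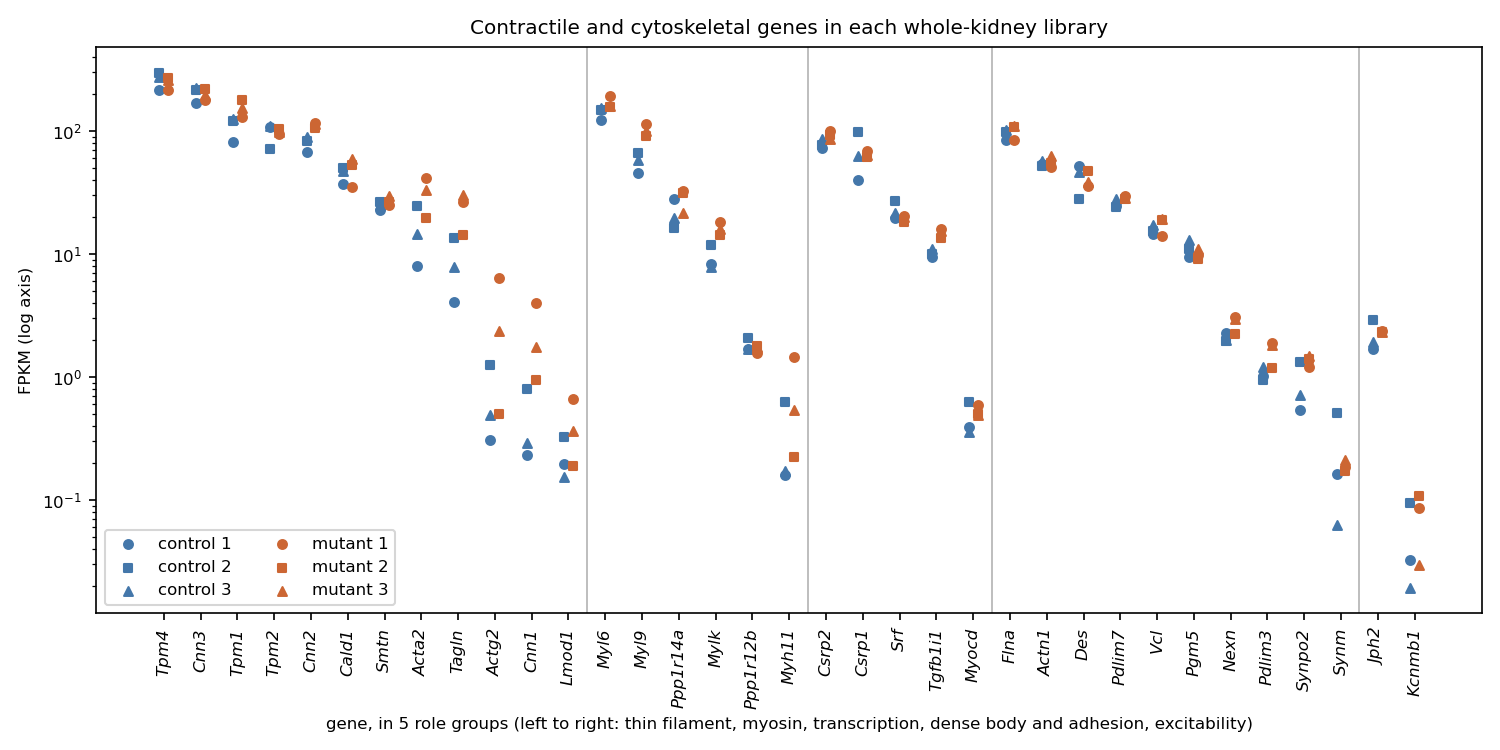
FPKM of the 35 genes in the table (vertical log axis) in each of 3 control (blue) and 3 mutant (orange) libraries, with the marker shape giving the library number and grey lines separating the 5 role groups. Tpm4, Cnn3 and Myl6 lie above 100 FPKM in every library, Myh11, Actg2 and Cnn1 at or below 6.36 FPKM, and Actg2 spans 12.6-fold among the mutants.

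The genes covered a wide range of levels. Per length, the highest control means were those of the cytoskeletal tropomyosin Tpm4 (262 ± 43.0 FPKM, SD, n = 3), of the acidic calponin Cnn3 (203 ± 29.5) and of the essential myosin light chain Myl6 (142 ± 17.2). Several genes that mark differentiated smooth muscle had far lower RNA levels. In controls the smooth muscle myosin heavy chain Myh11 was at 0.319 ± 0.266 FPKM, the basic calponin Cnn1 at 0.442 ± 0.315, the enteric actin Actg2 at 0.685 ± 0.503 and the thin filament nucleator Lmod1 at 0.225 ± 0.0877 FPKM. Over the 6 libraries these 4 genes rest on 557, 518, 414 and 200 reads. The smooth muscle actin Acta2 (15.7 ± 8.34 FPKM) and transgelin, Tagln (8.46 ± 4.68 FPKM), lay in between. So did other genes taken here as smooth muscle markers, Smtn (24.8 ± 1.78 FPKM), Ppp1r14a (21.3 ± 6.19) and Mylk (9.36 ± 2.21).

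Among the 12 thin filament genes, 10 had positive fold changes with a median of 0.51, and 0 passed limma over all genes. Acta2 (chromosome 19, 34241090 to 34255590, minus strand, GRCm38) measured 8.03, 24.6 and 14.5 FPKM in controls 1 to 3 and 41.7, 19.5 and 33.2 FPKM in mutants 1 to 3. Mutant 2 lay below control 2, so the groups overlapped, and limma gave a log2 fold change of 1.08 ± 0.41 SE (adjusted p = 0.47). Tagln (chromosome 9, 45929619 to 45936058, minus strand), the actin-binding protein SM22, measured 4.11, 13.4 and 7.86 FPKM in the controls and 26.7, 14.3 and 30.2 FPKM in the mutants. Every mutant was above every control, but mutant 2 exceeded control 2 by little (limma log2 fold change 1.58 ± 0.43 SE, adjusted p = 0.281, and 0.013 in the authors' deposited table).

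Cnn1 (chromosome 9, 22099216 to 22109630, plus strand), the calponin of differentiated smooth muscle, measured 0.231, 0.804 and 0.291 FPKM in the controls and 4.04, 0.942 and 1.76 FPKM in the mutants. Its groups did not overlap, and its limma log2 fold change of 2.26 ± 0.61 SE (adjusted p = 0.274, and 0.0212 in the authors' deposited table) had the highest value of the 34 genes. Actg2 measured 0.309, 1.26 and 0.488 FPKM in the controls and 6.36, 0.505 and 2.38 FPKM in the mutants. Mutants 1 and 3 were above all controls and mutant 2 was among them (limma log2 fold change 1.73 ± 0.86 SE, adjusted p = 0.549). Lmod1, with 0.155 to 0.323 FPKM in controls and 0.189 to 0.658 in mutants, had the same order, with mutant 1 highest and mutant 2 lowest of the mutants. The coding sequences of Acta2 and Actg2 resemble those of other actins. How reads that match several actins were counted was not examined here, which leaves some uncertainty in the level of each.

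Cnn2 (chromosome 10, 79988584 to 79996062, plus strand), the neutral calponin found in many motile cells, measured 67.1, 82.7 and 89.1 FPKM in the controls and 117, 105 and 114 FPKM in the mutants. The groups were well apart (limma log2 fold change 0.50 ± 0.14 SE, adjusted p = 0.294, and 0.167 in the authors' deposited table). Tpm1, a tropomyosin used by smooth, striated and non-muscle cells, measured 81.2, 121 and 126 FPKM in the controls and 130, 179 and 154 FPKM in the mutants, with the highest control just under the lowest mutant (limma log2 fold change 0.51 ± 0.20 SE, adjusted p = 0.487). The groups overlapped for Tpm2 (95.7 ± 21.5 and 99.2 ± 5.20 FPKM), Tpm4 (262 ± 43.0 and 247 ± 28.9 FPKM), Cnn3 (203 ± 29.5 and 198 ± 19.1 FPKM), caldesmon, Cald1 (45.0 ± 6.97 and 49.2 ± 12.8 FPKM), and smoothelin, Smtn (24.8 ± 1.78 and 27.0 ± 2.21 FPKM). Their log2 fold changes were between -0.08 and 0.12.

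**Figure D2:**
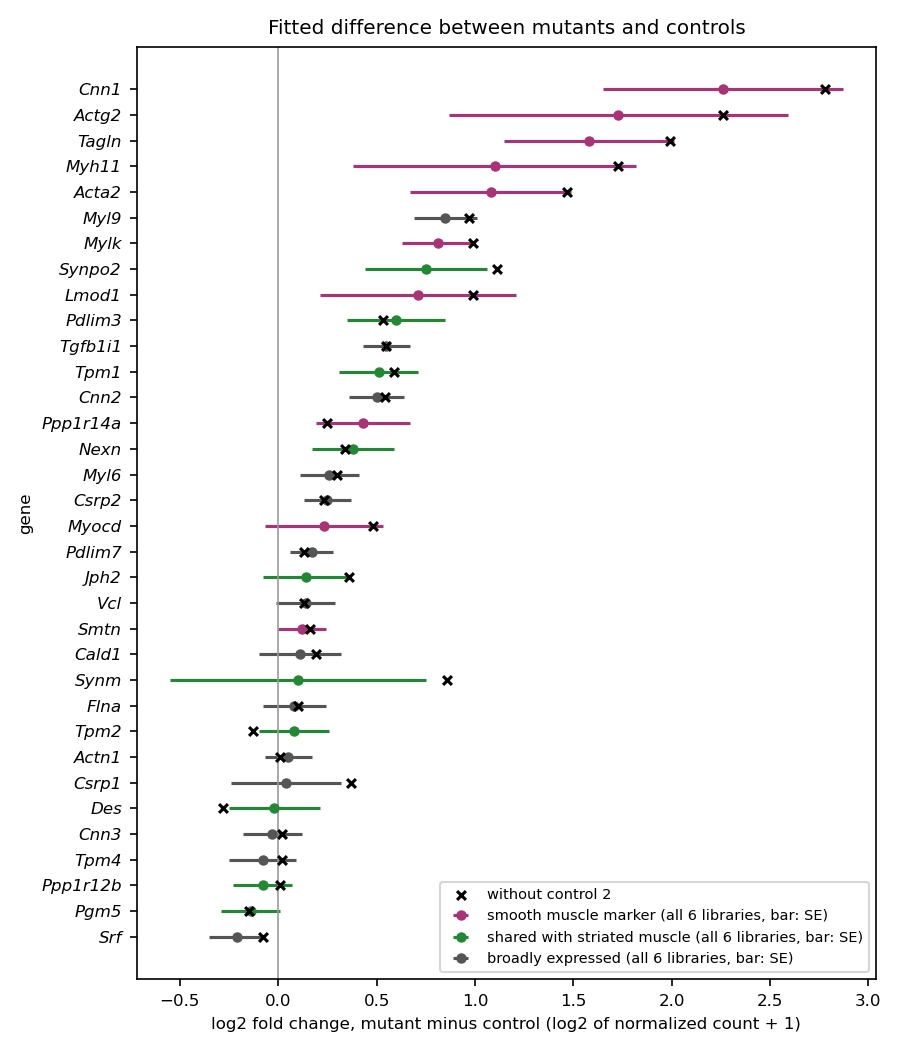
Log2 fold change of the 34 tested genes, mutant minus control on the log2(normalized count + 1) scale, with its standard error (bars), coloured by class of gene, and the same without control 2 (crosses). Cnn1, Actg2, Tagln, Myh11 and Acta2 have the 5 highest values, between 1.08 and 2.26, and Srf the lowest at -0.21.

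The calponins and tropomyosins were also read as shares of their family. Cnn2 made up 28.3%, 27.6% and 28.4% of the summed calponin FPKM in controls 1 to 3 and 38.8%, 32.5% and 36.6% in mutants 1 to 3. Cnn3 held 71.5% to 72.1% in controls and 59.9% to 67.2% in mutants. Cnn1 was the smallest part in both, 0.0926% to 0.268% in controls and 0.290% to 1.34% in mutants. None of these 3 shares overlapped between the groups, but the shares of Cnn2 and Cnn3 are complementary and make one observation. With the non-muscle tropomyosin Tpm3 added to the family, Tpm1 was 16.5%, 17.9% and 19.8% of the summed tropomyosin FPKM in the controls and 25.7%, 27.7% and 25.4% in the mutants. Tpm3 had a share of 18% to 27.2% in the controls and 13.1% to 15.8% in the mutants. Tpm4 held 42.9% to 44.3% and 41.6% to 42.5%, and Tpm2 overlapped, at 10.6% to 21.9% and 16.2% to 18.6%. These shares do not depend on how the libraries were scaled. They are given as a description and were not tested. The tropomyosin shares also sum to a whole, so those of Tpm1 and Tpm3 are not separate observations.

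**Figure D3:**
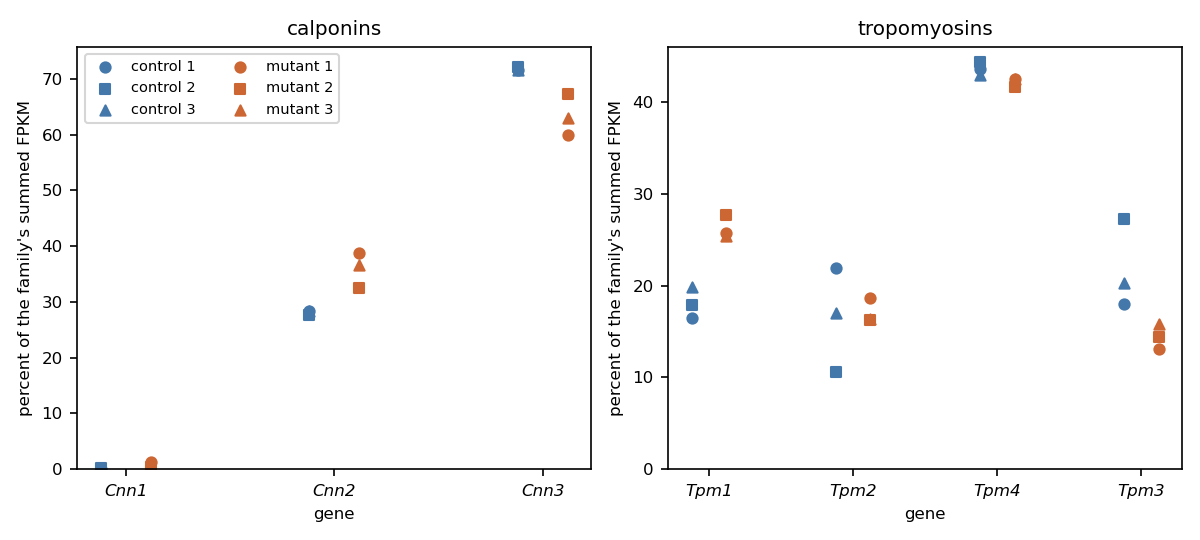
Share of each gene in the summed FPKM of its family (vertical axis, percent) for 3 calponins (left) and 4 tropomyosins (right), one marker per library, controls in blue and mutants in orange. Cnn1, Cnn2 and Tpm1 take larger shares in all 3 mutants than in any control, and Cnn3, Tpm3 and Tpm4 smaller ones.

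Of the 6 genes of myosin and its regulation, 5 had positive fold changes (median 0.62) and 3 had groups without overlap. Myl9 (chromosome 2, 156775420 to 156781658, plus strand) encodes the regulatory light chain whose phosphorylation starts contraction. It measured 45.8, 66.7 and 58.1 FPKM in the controls and 114, 91.2 and 99.5 FPKM in the mutants, a 1.79-fold ratio of means with a wide gap between the groups. In limma its log2 fold change was 0.85 ± 0.16 SE (adjusted p = 0.099, and 0.0107 in the authors' deposited table). Mylk (chromosome 16, 34745210 to 35002420, plus strand), the kinase of that light chain, measured 8.30, 11.9 and 7.87 FPKM in the controls and 18.4, 14.3 and 15.9 FPKM in the mutants. These groups also lay apart (limma log2 fold change 0.81 ± 0.18 SE, adjusted p = 0.151, and 0.0245 in the authors' deposited table).

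Myl6, the light chain shared by smooth muscle and non-muscle myosins, measured 123, 148 and 155 FPKM in the controls and 194, 157 and 160 FPKM in the mutants. Its groups were separate by a narrow margin (limma log2 fold change 0.26 ± 0.15 SE, adjusted p = 0.583). Myh11 measured 0.159, 0.625 and 0.172 FPKM in the controls and 1.46, 0.225 and 0.536 FPKM in the mutants. Mutants 2 and 3 were below control 2 and only mutant 1 was above every control (limma log2 fold change 1.10 ± 0.72 SE, adjusted p = 0.615). The genes acting on myosin phosphatase overlapped. Its inhibitor Ppp1r14a, also called CPI-17, was at 21.3 ± 6.19 and 28.5 ± 6.14 FPKM, and its targeting subunit Ppp1r12b at 1.82 ± 0.217 and 1.71 ± 0.114 FPKM.

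The 5 transcriptional regulators gave no common pattern. Myocd, encoding the cofactor that drives the smooth muscle programme, was near the bottom of the range, at 0.394, 0.632 and 0.358 FPKM in the controls and 0.597, 0.497 and 0.491 FPKM in the mutants. The 3 mutants lay within the span of the controls (limma log2 fold change 0.23 ± 0.30 SE, adjusted p = 0.775). Srf measured 19.7, 27.1 and 21.7 FPKM in the controls and 20.3, 18.4 and 20.1 FPKM in the mutants. Control 2 was the high value and the remaining libraries were close together (limma log2 fold change -0.21 ± 0.14 SE, adjusted p = 0.62). Tgfb1i1 (chromosome 7, 128246812 to 128255699, plus strand) encodes Hic-5, a focal adhesion protein that also acts as a transcriptional cofactor. It measured 9.53, 10.1 and 10.9 FPKM in the controls and 15.9 and 15.3 FPKM in mutants 1 and 3. Mutant 2 was the lowest mutant, and the mutant mean was 14.9 ± 1.23 FPKM. Its groups were apart with little spread in either (limma log2 fold change 0.55 ± 0.12 SE, adjusted p = 0.151, and 0.102 in the authors' deposited table). The LIM proteins Csrp1 (67.3 ± 29.7 and 64.9 ± 3.41 FPKM) and Csrp2 (78.8 ± 6.92 and 93.5 ± 7.31 FPKM) overlapped, and Csrp1 ranged from 39.9 to 98.8 FPKM among the controls alone.

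Since serum response factor joins many of these genes, the 250 bases before each RefSeq start (GRCm38.p6) were searched for the CArG box in its strict form, which reads alike on both strands. RefSeq windows were on hand for 29 of the 36 genes, 34 windows in all. A box was found in 5 of the 34 windows (14.7%) and in 482 of 32851 windows of all genes (1.47%). These were windows of Myl9, Cnn2, Myl6, Srf and Vcl. The first base of the box lay 161, 56, 50 and 227 bases before the start in Myl9, Cnn2, Myl6 and Vcl, and Srf had 2 boxes, 82 and 62 bases before its start. The box of Myl6 was CCTTATATGG and lay in bases that GENCODE M21 annotates as exon, so no more is printed. The 9 letters GACCACCCA, the core site of Gli factors, were found on either strand in 0 of the 34 windows and in 0.225% of all. No motif match shows that a factor binds, and a window without one says only that these letters are not in it.

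The stretches around the boxes of 4 genes are shown 5′ to 3′ on the gene's strand, with the boxes in capitals, because 2 of them are genes whose mutant and control values did not overlap (Myl9 and Cnn2) and 2 are genes whose values did overlap (Srf and Vcl). They lie at chr2:156775243-156775342 (plus), chr10:79988484-79988583 (plus), chr17:46556185-46556304 (minus) and chr14:20929148-20929210 (plus), outside GENCODE M21 exons.
Myl9: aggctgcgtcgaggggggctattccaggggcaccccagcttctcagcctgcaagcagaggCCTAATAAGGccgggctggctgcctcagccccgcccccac
Cnn2: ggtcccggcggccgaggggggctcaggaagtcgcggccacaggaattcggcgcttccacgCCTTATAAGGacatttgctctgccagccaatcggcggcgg
Srf: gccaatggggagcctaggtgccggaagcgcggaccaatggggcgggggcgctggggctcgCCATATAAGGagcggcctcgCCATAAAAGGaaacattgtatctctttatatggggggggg
Vcl: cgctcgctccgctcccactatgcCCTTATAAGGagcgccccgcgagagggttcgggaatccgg

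Windows with a box were thus those of Myl9, Cnn2 and Myl6, whose groups were separate, and of Srf and Vcl, whose groups overlapped. Whether the box goes with the difference between mutants and controls was not tested. The windows of Acta2, Cnn1 and Mylk held no strict box, and Tagln had no window. The window of Acta2 (34255374 to 34255623) lay mostly inside the gene as GENCODE M21 places it. That of Mylk (34784700 to 34784949) lay wholly inside its gene. The windows of Flna, Smtn, Tpm4 and Myl6 also lay wholly inside their genes, and those of Tpm1, Tpm2 and Pdlim7 mostly so. All of these say little about the bases before those gene starts.

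Among the 10 genes of intermediate filaments, dense bodies and adhesion plaques the median log2 fold change was 0.12, and Pdlim7 alone had separate groups. Pdlim7, a PDZ and LIM protein of actin bundles, measured 24.6, 24.3 and 28.1 FPKM in the controls and 29.6, 28.1 and 28.7 FPKM in the mutants. Its groups nearly touched (limma log2 fold change 0.17 ± 0.11 SE, adjusted p = 0.615). Synpo2, an actin-bundling protein of Z-discs and dense bodies, was at 0.866 ± 0.416 and 1.36 ± 0.148 FPKM, with control 2 above mutant 1. The Z-disc genes Pdlim3 (1.06 ± 0.128 and 1.63 ± 0.392 FPKM) and Nexn (2.09 ± 0.169 and 2.75 ± 0.465 FPKM) overlapped by 1 mutant each. Desmin, Des, the muscle intermediate filament, was at 42.4 ± 12.5 and 40.8 ± 5.98 FPKM. The filamin Flna (95.0 ± 9.05 and 101 ± 13.4 FPKM), alpha-actinin Actn1 (54.6 ± 2.64 and 56.5 ± 6.02 FPKM), vinculin, Vcl (15.7 ± 1.37 and 17.5 ± 2.92 FPKM), and the adhesion protein Pgm5 (9.51 to 12.9 and 9.09 to 11.1 FPKM) had log2 fold changes between -0.14 and 0.14. Synemin, Synm, rested on 270 reads and spanned 0.0625 to 0.515 FPKM among the controls. Its fitted log2 fold change was 0.10 although its mean FPKM was lower in the mutants (0.247 ± 0.238 and 0.190 ± 0.0198). Of the excitability genes, junctophilin, Jph2, was at 2.18 ± 0.635 and 2.34 ± 0.0168 FPKM and Kcnmb1 at 0.0491 ± 0.0404 and 0.0746 ± 0.0400 FPKM.

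The 34 genes were also sorted by how widely they are used. The 10 tested genes that mark smooth muscle all had positive fold changes, with a median of 0.94. The 14 broadly expressed genes had a median of 0.12, with 11 positive. The 10 tested genes shared with striated muscle had a median of 0.12 as well, with 7 positive. The difference between these classes was not tested. Each library was given a score per list, the average over the tested genes of log2(normalized count + 1) after the control mean of each gene was subtracted. For the smooth muscle markers it was -0.40, 0.61 and -0.21 in controls 1 to 3 and 1.62, 0.36 and 1.03 in mutants 1 to 3. Control 2 was therefore above mutant 2.

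That order recurred gene by gene. Control 2 was the highest control for 9 of the 10 smooth muscle markers (against 41.6% of all genes tested), mutant 1 the highest mutant for 8 (against 35.3%) and mutant 2 the lowest mutant for 7 (against 30.8%). The spread within a genotype was wide. From the lowest to the highest library, Actg2 differed 4.06-fold among controls and 12.6-fold among mutants, Myh11 3.94-fold and 6.46-fold, and Acta2 3.06-fold and 2.14-fold. For Cnn2 the same ratios were 1.33 and 1.11. Without control 2, limma called 4 of the 34 genes higher, namely Tagln, Myl9, Mylk and Synpo2. Leaving it out raised calls among all genes too, to 112 higher (0.661%) from 37. That fit set controls 1 and 3, with Ddx3y at 0.0598 and 0.0177 FPKM, against mutants at 13.9 to 16.2 FPKM. Sex and genotype cannot be told apart in it. Without any other single library limma called 0 of the 34 genes.

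**Figure D4:**
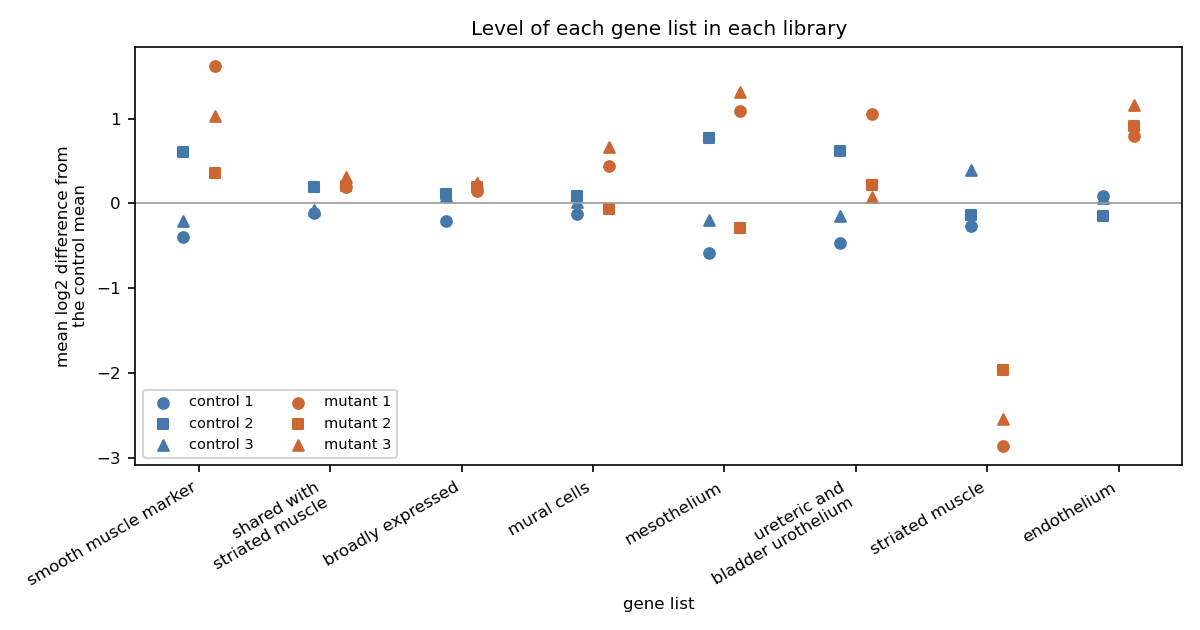
Score of 8 gene lists in each library (vertical axis, mean log2 difference from the control mean), controls in blue and mutants in orange. For the smooth muscle markers control 2 lies above mutant 2, control 2 is the highest control for the mesothelium and urothelium lists too, and the striated muscle list is low and the endothelial list high in all 3 mutants.

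Markers of other tissues were read in the same libraries. Of 8 mesothelial genes 7 were tested, limma called 0 and 0 had an unadjusted p under 0.05, and the score was -0.58, 0.77 and -0.19 in controls 1 to 3 and 1.09, -0.29 and 1.31 in mutants 1 to 3. Summed over the list, FPKM came to 53.8 to 64.1 per control and 49.9 to 65.5 per mutant, mainly from Rspo1 and Nkain4. Control 2 had the highest control score but the lowest control sum, since Rspo1 was at 24.7 FPKM there against 45.3 and 39.9 FPKM in controls 1 and 3, and Muc16 was listed at 0 in control 1 and mutant 2. Of 10 urothelial genes, a list added after the values had been seen, 7 were in the table and 6 were tested, of which limma called 0 and 1 had an unadjusted p under 0.05. That score was -0.47, 0.62 and -0.15 in the controls and 1.06, 0.22 and 0.08 in the mutants. The summed FPKM was 34.1 to 71.7 per control and 44.1 to 100 per mutant, mainly from Krt18 and then Krt7. The uroplakin gene Upk3a was at 0.541 FPKM in control 2 and 1.90 in mutant 1, against 0 to 0.284 FPKM in the rest. The part of surrounding or ureteric tissue in the smooth muscle values was not tested.

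Striated muscle genes went the other way. Of 23 listed genes 22 were tested, 21 had negative fold changes and 8 fell in limma over all genes. The list summed to 83.2 to 135 FPKM per control and to 30 to 45.0 FPKM per mutant. Acta1, the skeletal actin, fell, with 9.33 ± 4.64 FPKM in controls and 0.208 ± 0.0937 in mutants (limma log2 fold change -5.26 ± 0.45 SE, adjusted p = 0.00443), and the sarcomeric alpha-actinin Actn2, the embryonic myosin Myh3 and the slow myosin Myh7 fell as well. The cardiac actin Actc1 was at 20.1 ± 5.69 and 6.43 ± 3.45 FPKM. Des and Tpm2 are used by striated muscle too, and the part of the striated muscle fall in their values was not tested.

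Vascular markers were measured beside them. Of 17 tested mural cell genes limma called 0, an unadjusted p under 0.05 was reached by 5 in the higher and 1 in the lower direction, and the score was -0.12 to 0.09 in controls against 0.44, -0.07 and 0.66 in mutants 1 to 3. The authors' deposited table called 4 of them higher and 1 lower. By its smallest p these included the adhesion molecule Mcam (14.2 ± 2.46 and 25.8 ± 1.27 FPKM), the proteoglycan gene Cspg4 (4.0 ± 1.46 and 6.88 ± 1.11 FPKM) and the receptor gene Pdgfrb (16.0 ± 3.62 and 25.9 ± 4.59 FPKM). The pericyte gene Rgs5 was at 9.27, 21.4 and 9.10 FPKM in the controls and 11.5, 9.23 and 9.63 FPKM in the mutants, so that control 2 again stood highest. All 12 endothelial genes had positive fold changes, and Emcn, Tie1, Esam and Cldn5, 4 of them, rose in limma over all genes. Endothelial scores lay at -0.15 to 0.09 for the controls and at 0.80 to 1.16 for the mutants, whereas those of the smooth muscle markers overlapped. Limma called 0 of 12 macrophage genes (median 0.67) and 0 of 10 tested neural and chromaffin genes (median 0.78). Of these, 6 and 4 had an unadjusted p under 0.05. The authors' deposited table called 0 macrophage genes, and 5 of 11 neural and chromaffin genes higher (45.5%, against 3.07% of all genes). The neural and chromaffin score was -0.04, -0.45 and 0.49 in controls 1 to 3. It was 0.74, 0.12 and 1.99 in mutants 1 to 3, with mutant 3 far the highest.

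Genes of calcium handling and contractile receptors showed few calls. Of the 18 genes of calcium handling and relaxation limma called 1. Casq2, a calcium store protein of cardiac and slow skeletal muscle, fell, with 1.20 ± 0.148 FPKM in controls and 0.113 ± 0.0383 in mutants (limma log2 fold change -3.27 ± 0.37 SE, adjusted p = 0.0147). Cav1, the main coat protein of caveolae, was at 12.3 ± 2.77 and 23.0 ± 1.95 FPKM without overlap (limma adjusted p = 0.091, and 0.00927 in the authors' deposited table). Limma called 0 of 13 tested receptors for contractile ligands, of which 5 in the higher and 1 in the lower direction had an unadjusted p under 0.05. The authors' deposited table called 2 of them higher, the adrenergic receptor Adra1d (2.11 ± 0.754 and 6.32 ± 3.56 FPKM) and the endothelin receptor Ednrb (4.51 ± 0.867 and 8.10 ± 1.74 FPKM).

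Among 25 genes of the non-muscle actin cytoskeleton limma called 0, and an unadjusted p under 0.05 was reached by 1 in the higher and 2 in the lower direction, with a median of 0.01. The authors' deposited table called Vim (220 ± 35.4 and 318 ± 33.6 FPKM), the mesenchymal intermediate filament, higher and Tpm3 (134 ± 47.1 and 85.1 ± 16.4 FPKM) lower. The cytoplasmic actins had similar levels in both groups, at 2170 ± 187 and 2400 ± 31.8 FPKM for Actb and at 723 ± 254 and 609 ± 68.6 FPKM for Actg1. Limma called 0 of 17 tested partners and regulators of Srf, 4 of which reached an unadjusted p under 0.05 on the higher side. Mrtfa was at 9.47, 10.1 and 10.3 FPKM in the controls and 7.25, 8.61 and 9.88 FPKM in the mutants, and Mrtfb at 5.14, 5.74 and 5.34 and at 5.69, 6.42 and 7.39 FPKM. The authors' deposited table called Elk3 (22.3 ± 2.32 and 30.2 ± 4.26 FPKM) and Klf5 (3.61 ± 0.520 and 7.08 ± 1.88 FPKM) higher.

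Genes that act in the ureteric mesenchyme before smooth muscle differentiates were also mostly on the higher side, and the difference between them and the contractile genes was not tested. Of 16 tested, 14 had positive fold changes and 3 rose in limma over all genes. Those 3 were the forkhead genes Foxf1, Foxf2 and Foxl1, all of which are also known as Hedgehog targets. Foxf1 measured 1.57, 0.859 and 1.60 FPKM in the controls and 13.9, 5.35 and 7.32 FPKM in the mutants (limma log2 fold change 2.64 ± 0.38 SE, adjusted p = 0.0369). Control 2 was the lowest control for Foxf1, whereas it was the highest for Acta2, Cnn1 and Myh11. Bmp4 was at 18.8 ± 4.72 and 32.4 ± 4.45 FPKM, without overlap (limma adjusted p = 0.22, and 0.000362 in the authors' deposited table). The negative fold changes were those of Aldh1a2 and Dlg1. Aldh1a2 was at 279 ± 46.9 and 185 ± 16.6 FPKM, with every mutant below every control (limma adjusted p = 0.305, and 0.0575 in the authors' deposited table). The T-box gene Tbx18, which marks the precursors of ureteric smooth muscle, was at 12.5, 4.97 and 12.2 FPKM in the controls and 8.10, 15.7 and 12.2 FPKM in the mutants. The zinc finger gene Tshz3, needed for that smooth muscle to form, was at 4.57, 4.28 and 5.23 FPKM in the controls and 6.31, 7.17 and 6.84 FPKM in the mutants, which lay apart without passing (limma adjusted p = 0.241).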

How the data were processed

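RNA was sequenced from whole kidneys, 3 control and 3 mutant libraries. The tools, per the submitters' processing notes (in no stated order), included DESeq2, HTSeq 0.6.1p2, STAR 2.6.0c and Trim Galore, with the mm10 build. The sources used here do not say whether strand was used in counting. The deposited table held the authors' FPKM per library (no header names the unit, which was taken from the values) and, per the file headers, the mean normalized signal, log2 fold change, test score and p-value of the authors' own comparison.

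FPKM times mean normalized signal over mean FPKM gave normalized counts, and 100% of 134364 values were whole reads to within 1e-06 (of a read, or of the count above 1 read). Limma 3.58.1 (R 4.3.3) with an intensity trend, on log2(normalized count + 1), covered the 16933 genes whose normalized count reached 10 in 3 or more libraries, and was tested beforehand on simulated data. Fold changes on this scale understate those of low genes. Alternatives were other pseudocounts, filters and scalings, library weights, voom on the recovered reads (which called 50 of all genes), a replicate block and leaving out each library. Calls were Benjamini-Hochberg adjusted p under 0.05 over all genes tested. Low counts of reads limit precision most for Kcnmb1, Lmod1, Synm, Myocd, Actg2, Cnn1 and Myh11.

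The genes, lists and tests were chosen with earlier results of these data known. Values per library were given for Acta2, Tagln, Myh11, Cnn1, Actg2, Myocd and Srf and for genes called or without overlap, and from each further list the called genes with the smallest p. Other genes with values were added after these had been seen. Of the listed genes, Mrtfa, Mrtfb, Gucy1a1 and Gucy1b1 were matched by older symbols. Positions are from GENCODE M21 (GRCm38). Not every gene list drawn up is reported here.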

Additional observations from a re-analysis of the deposited data

How the results depend on the processing

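Over 16 other settings, 505 of 539 fold changes of the contractile genes kept their direction and their side of the threshold, 24 changed sign and 10 passed the threshold. With library weights 6 genes were called higher (Tagln, Cnn1, Myl9, Synpo2, Mylk and Tgfb1i1). At that setting 278 of all 16933 genes tested were called higher, against 37 without weights. The weights were estimated from these same libraries and were lowest for control 2 (0.333). Leaving out 1 library gave 0 to 4 called higher and 11 to 17 genes with separate groups in either direction. The 17 (50%, against 26.4% of all genes at that setting) were without control 2, where sex and genotype cannot be told apart. The number was 14 (41.2%) without mutant 1 (all genes 24.2%) or mutant 2 (26.1%). Without control 1 the share in either direction was near that of all genes, 38.2% against 37.6%, with 11 genes higher (32.4%, against 17.4%) and 2 lower (5.88%, against 20.2%). The number called lower was 0 in every setting. The median over all contractile genes was 0.17 to 0.35, that of the smooth muscle markers 0.57 (without mutant 1) to 1.27 (without mutant 2), and on log2(FPKM + 1) 0.58. The median of the genes shared with striated muscle was 0.31 with library weights, and 0.11 to 0.35 without 1 library. Genes near 0 changed sign. Cnn3 was at 0.01 and 0.02 and Des at 0.02 and 0.03 when scaled by total reads and by upper quartile, Synm at -0.05 on log2(FPKM + 1), and Tpm2 at -0.05 and Ppp1r12b at 0.02 with library weights. Without 1 library each, Cnn3 ranged from -0.15 to 0.05, Des from -0.28 to 0.16, Synm from -0.61 to 0.86, Tpm2 from -0.13 to 0.18, Tpm4 from -0.22 to 0.02, Ppp1r12b from -0.13 to 0.01, Cald1 from -0.05 to 0.34, Csrp1 from -0.28 to 0.37, Jph2 from -0.02 to 0.36 and Actn1 from -0.04 to 0.11. The cause was not tested. Correlations of deviations from the group means were 0.001, -0.098 and 0.309 for same-numbered libraries and -0.367 to 0.234 for differently numbered ones. With 3 libraries per group they cannot settle whether the replicate numbers pair the libraries. With the replicate number as a block, 0 contractile genes and 17 of all genes were called, against 52 without it. Over all genes, library weights called 380 and leaving out 1 library 9 (without mutant 2) to 158 (without control 2).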
